A study of Pavo cristatus and Gallus gallus and Meleagris gallopavo with 54 samples.

Results

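The turkey CAGE table held 10024 peaks of capped 5′ ends, and 1171 of them (11.7%) lay inside gene bodies. Members were all peaks whose class in the table began with exon, intron, 3′ UTR or 5′ UTR. By this rule 324 peaks were in exons and 847 in introns, and no peak carried a UTR class. The remaining peaks were 6924 promoter peaks, 1907 intergenic peaks and 22 peaks downstream of genes. The values came from embryonic fibroblasts of 3 turkey embryos at passage 5, each split over 2 media with serum, DMEM/F12 and DMEM high glucose. Embryos 2 and 3 were male and embryo 4 was female, which gave 4 male and 2 female CAGE libraries. The female values thus came from 1 embryo, so that sex and embryo cannot be told apart. One male and one female culture in high glucose, those of embryos 2 and 4, were also sequenced by RNA-seq. The study compared male and female fibroblasts of 7 bird species in the absence of gonads.

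CAGE sequences the capped 5′ end of RNA, so that a pile of tags marks where a transcript begins and its height measures how much RNA begins there. Most capped ends of a protein-coding gene lie at its promoter. Capped ends inside the body of a gene are known from alternative promoters, which yield shorter or different proteins, and from transcribed enhancers, which often lie in introns. In exons of very abundant mRNAs, scattered tags are also known that do not correspond to a core promoter. Male birds carry a pair of Z chromosomes and females a Z and a W, and birds lack a chromosome-wide silencing of the male Z.

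Each value is in TPM, the tags of a peak scaled to the mapped tags of its library. The depth of the libraries was 10899828 to 11689680 tags, and 1 tag was worth 0.0855 to 0.0917 TPM. Every peak of the table, member or not, reached 10.0 TPM in at least 1 library. Of the members, 816 stayed at or above 10 TPM in all libraries and 355 fell below it in at least 1. No member was at 0 in any library. Pearson correlations of log2(TPM + 1) between libraries over the members ranged from 0.922 to 0.982. The high glucose library of male embryo 3, whose title carries the mark "(2nd)", had the lowest mean correlation with the others (0.941, against 0.953 to 0.963). In lists of values below, the order is always F12 and high glucose of male embryo 2, F12 and high glucose of male embryo 3, then F12 and high glucose of female embryo 4. Positions are on turkey assembly MGAL_WU_HG_1.0, and sequences without a chromosome name keep the name of the file.

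Exon peaks were lower than intron peaks. The mean level over 6 libraries had a median of 14.7 TPM in exons (quartiles 9.86 and 26.6) and of 27.5 TPM in introns (quartiles 13.7 and 55.3). Promoter peaks had a median of 34.4 TPM and intergenic peaks one of 25.1 TPM. Within each library, the median log2(TPM + 1) of exon peaks was below that of intron peaks by 0.72 to 0.94, with a mean difference of -0.83 ± 0.0802 (SD, n = 6 libraries). The median of all gene-body peaks was below that of promoter peaks by 0.54 to 0.64 in each library, with a mean difference of -0.60 ± 0.0337 (SD, n = 6). Both differences had the same sign in 6 of 6 libraries, and the two-sided exact sign-flip permutation test gave p = 0.03125 for each, the smallest p it can reach with 6 libraries. Libraries of the same embryo are not independent, and all libraries hold the same peaks, so that this p covers only the spread between cultures. It does not measure the spread between embryos or between peaks.

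The upper tail did not follow the medians. A mean of at least 100 TPM was reached by 39 exon peaks (12%) and 114 intron peaks (13.5%), against 19.5% of promoter peaks. At least 1000 TPM was reached by 7 exon and 7 intron peaks, which is 2.16% and 0.826% of their classes, against 1.47% of promoter peaks. The exon class therefore held many low peaks and a few that were among the strongest of the table. Gene-body peaks together took 9.64%, 9.89%, 9.98%, 9.90%, 9.74% and 10.0% of the peak TPM of a library, in the order above. Exons contributed 3.22% to 3.51% and introns 6.34% to 6.72%, while promoter peaks took 76.8% to 77.7%.

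The share of peak TPM in gene bodies was nearly the same in all groups. It was 9.85% ± 0.146 in male (SD, n = 4) and 9.89% ± 0.207 in female libraries (SD, n = 2), a difference of -0.0366 percentage points with an exact two-sided permutation p = 0.933, where 0.0667 is the smallest p possible. Leaving out the F12 library of embryo 2 or the high glucose library of embryo 4 turned this small difference to 0.0333 and 0.110, and the range without 1 library began at -0.183. In F12 the share was 9.79% ± 0.173 and in high glucose 9.94% ± 0.0822 (SD, n = 3 each), a difference of -0.152 percentage points (-0.248 to -0.0795 without 1 library). The exact permutation test gave p = 0.3 unpaired, with a smallest possible p of 0.1, and p = 0.5 with the embryos paired.

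Widths differed little between the classes. The median width was 194.5 bases in exons and 169 in introns, next to 175 for promoter and 186 for intergenic peaks. Exon peaks ranged from 6 to 3205 bases and intron peaks from 12 to 1560 bases. Only 3 members were 1000 bases or wider and 10 were under 50 bases. The widest, CAJPIY010000022.1:45710-48914, lay in exon 7 of 8 of its gene model at 110, 119, 128, 157, 134 and 131 TPM, and the narrowest, chr3:22801961-22801966, in exon 2 of 62 at 9.67, 9.82, 10.2, 14.04, 8.55 and 9.38 TPM. Level and width were weakly related across peaks, with Spearman's rho of 0.213 in exons, 0.277 in introns and 0.325 at promoters. These are descriptions across peaks, which share their libraries.

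**Figure D1:**
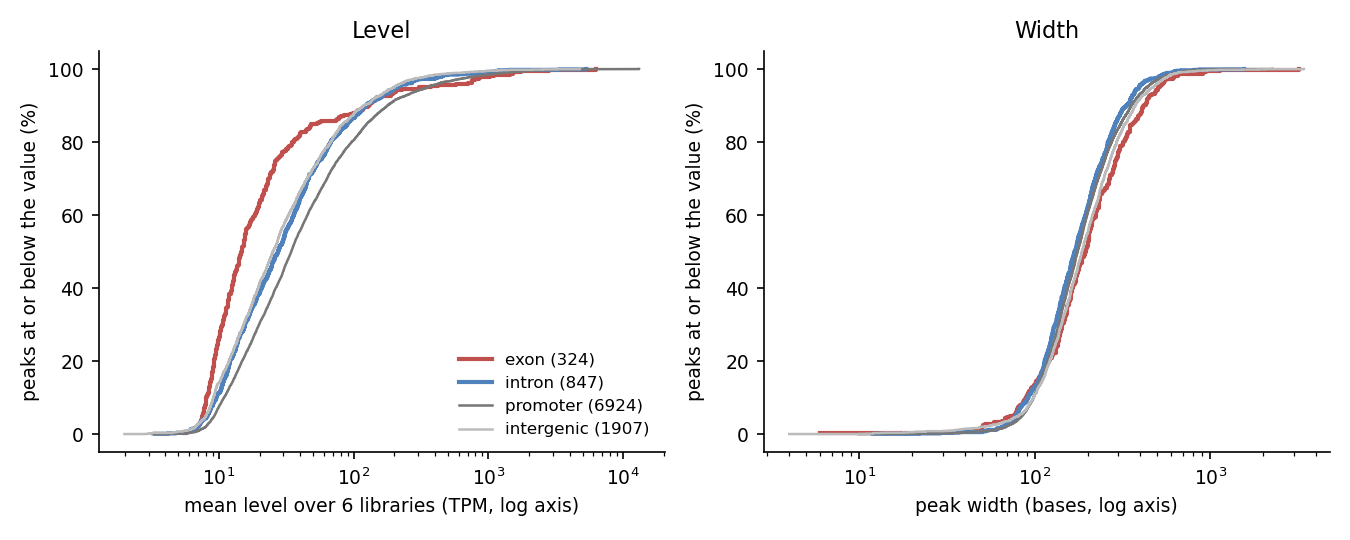
Cumulative share of peaks (y axis, percent) by mean level over the 6 turkey libraries (left, TPM on a log axis) and by peak width (right, bases on a log axis), for exon, intron, promoter and intergenic peaks with their numbers in the key. The exon curve rises earliest, at a median of 14.7 TPM, and meets the intron curve near 100 TPM, while the width curves nearly coincide.

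The strongest gene-body peaks were stable across libraries. The highest of all, chr21:6561264-6561458 in exon 7 of 8 of its host model, was at 5623, 5874, 5584, 7111, 6504 and 6895 TPM. The next, chr2:80653416-80653644 in intron 9 of 16, was at 5240, 5642, 6290, 4586, 4800 and 5481 TPM. The third, chr1:121336890-121337248 in intron 1 of 2, was at 2799 to 3643 TPM. In none of these did the groups by sex or medium pass a test, and the ranges of male and female libraries overlapped. A peak in exon 2 of 5, chr1:50493730-50494020, was more variable, at 1967, 3496, 1816, 2617, 2873 and 4190 TPM. It was lower in F12 in each of the 3 embryos, yet missed the threshold both without embryo as a block (adjusted p = 0.375) and with it (adjusted p = 0.0502). In 6 of the 10 highest members the high glucose library of embryo 3 was the lowest of the 6, as in chr1:131244875-131245168 (intron 17 of 20; 971 TPM there against 1401 to 1542 TPM in the others).

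The authors assigned peaks to genes of the same strand. The closest member lay 3008 bases from a gene start, since the table counts peaks within 3 kb of a start as promoter peaks. On either side of that limit the levels were similar. The 43 members at 3008 to 3495 bases had a median of 25.8 TPM, and the 161 promoter peaks at 2501 to 2999 bases had one of 23.4 TPM. The members lay in 895 gene models. A single member was found in 738 of these, 2 in 115, 3 in 20, and 4 or more in 22. Those 22 models held 143 members, of which 124 were in exons. Exon peaks were therefore often clustered, with 173 of the 324 in 43 models that held at least 2. Peaks of one model share its transcripts and are not independent of each other.

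Exon and intron peaks sat in different places along the gene. For 930 members (79.4%) the gene that holds the peak also had the nearest start, and for 241 (20.6%) the start of the next gene downstream was nearer. Among members whose host was the nearest gene, exon peaks lay at a median of 62.1% of the gene's length and 11647 bases from its start, and intron peaks at 44.0% and 13232 bases. Past the middle of the gene were 65.6% of exon and 39.7% of intron peaks. No exon peak was in a first exon, 29 of 324 were in a second exon and 31 in the last. In introns, 144 of 847 were in the first, 92 in the second and 36 in the last. The promoter class takes the first 3 kb from the start, so that only first exons reaching beyond it could hold a member. Exon medians rose slightly with distance, and intron medians showed no steady course. From 3 to 5, 5 to 10, 10 to 20, 20 to 50 and beyond 50 kb the medians were 14.2, 14.4, 14.6, 15.2 and 19.7 TPM in exons, the last over 6 peaks, and 23.3, 30.6, 28.3, 23.2 and 29.03 TPM in introns.

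Host genes of exon peaks had much higher RNA-seq levels than those of intron peaks. FPKM, the RNA-seq count scaled by gene length and library depth, was averaged over the 1 male and 1 female library. With each host counted once, its median was 153 over the 194 hosts of exon members (quartiles 37.5 and 668) and 29.1 over the 742 hosts of intron members (quartiles 14.2 and 60.6). Counted per peak, so that a host enters once for each of its members, the medians were 521 and 31.4. Gene models with a promoter peak had a median of 30.5, and all 16131 models with any signal one of 7.55. With these models ranked into 10 equal groups, 7.07% of the top group, from 85.2 FPKM upwards, held an exon peak, against 1.74% of the next group and at most 1.05% of any lower one. Intron peaks were most frequent in group 8, at 9.80%, and were in 7.81% of the top group. With 1 library per sex, these are values without a test. Where another gene's start was nearer, the median FPKM per peak was 479 in the host of the exon peak and 8.34 in that other gene, and in introns 30.03 and 16.7.

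The level of a peak was moderately related to that of its host in introns, and in exons the relation was near 0. Across members whose host was the nearest gene, Spearman's rho of host FPKM and peak TPM was 0.402 over 686 intron peaks and 0.00133 over 244 exon peaks. These are correlations across peaks, which share libraries and in part host genes. Hosts of the exon peaks in the table were thus highly expressed as a group, and across these peaks level did not rise with host FPKM. Only peaks that reached 10 TPM in some library were in the table, and exon peaks lay close to this limit. Their mean level had quartiles of 9.86 and 26.6 TPM around a median of 14.7 TPM. Hosts with many exon peaks entered the correlation with each of them. How far the limit and this counting shaped the relation in exons was not tested. The part of the limit in the high FPKM of exon hosts was not tested either.

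**Figure D2:**
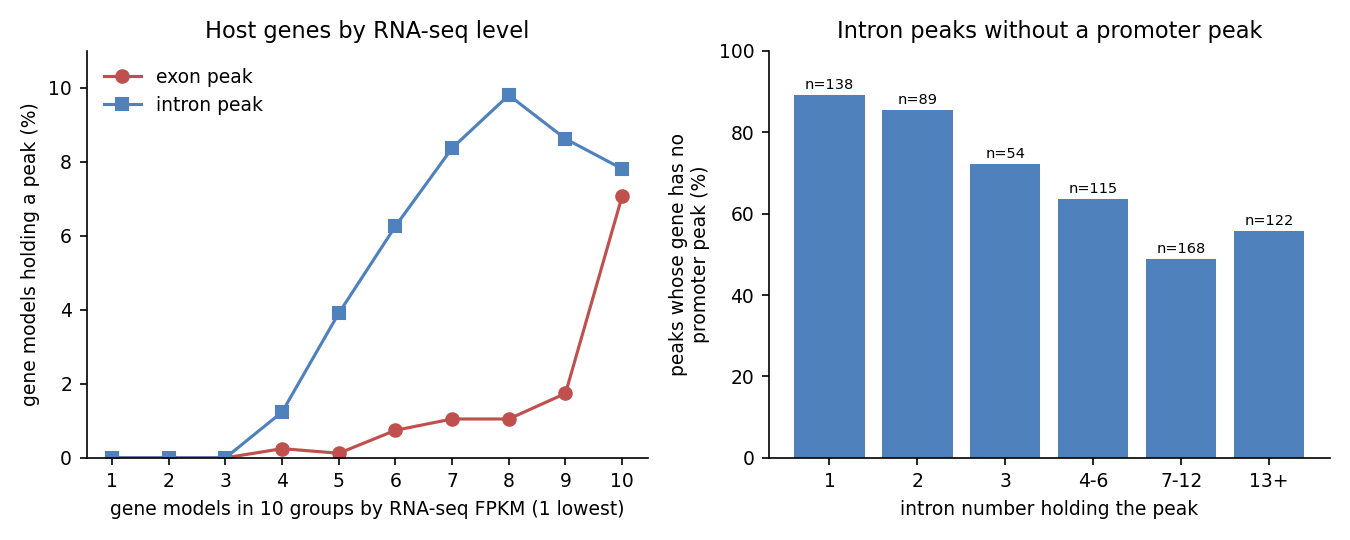
Left, percent of gene models (y axis) that held an exon or an intron peak, by 10 equal groups of the models ranked on RNA-seq FPKM (x axis, 1 lowest, mean of the male and female library). Exon peaks were concentrated in group 10 (7.07%), and intron peaks were most frequent in group 8 (9.80%). Right, percent of intron peaks (y axis) whose gene had no promoter peak, by the number of the intron (x axis), with the number of peaks above each bar; the share was 89.1% in first introns and 48.8% in introns 7 to 12.

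Many gene-body peaks had no promoter peak to accompany them. A promoter peak of the gene with the nearest start was present for 199 of 324 exon members (61.4%) and 306 of 847 intron members (36.1%). Where the host was the nearest gene, it was lacking for 79 of 244 exon peaks (32.4%) and for 461 of 686 intron peaks. The share without one fell along the gene. It was 89.1% for first introns (123 of 138), 85.4% for second introns, 72.2% for intron 3, 63.5% for introns 4 to 6, 48.8% for introns 7 to 12 and 55.7% beyond. Intron peaks whose gene had a promoter peak and those whose gene had none had like levels, with medians of 26.2 and 27.4 TPM, and their host FPKM, counted per peak, had medians of 41.3 and 27.3. The gene models were predicted by the authors, and how well their starts are placed was not tested.

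Where a promoter peak existed, exon peaks were far below it and intron peaks were near it. The log2 ratio of the member to the strongest promoter peak of its gene, with 1 TPM added to both, had a median of -4.10 in exons and -0.30 in introns. Where the host was also the nearest gene, the medians were -5.04 over 165 exon peaks (quartiles -7.38 and -2.63) and -0.35 over 225 intron peaks (quartiles -2.06 and 0.84). Of these exon peaks 60% were over 16-fold below the promoter peak and 9.09% were above it, while 9.33% of the intron peaks were over 16-fold below and 45.3% above. Over all 505 members with a promoter peak the median was -1.44, and 31.5% exceeded it. Computed in each library it ran from -1.60 to -1.44, so that no group of libraries stood apart. Other, weaker promoter peaks of the same gene, 557 in number, had a median of -2.31. Members were not higher where the promoter peak was higher. Spearman's rho of promoter and member level was -0.0652 in exons and -0.132 in introns. These members, too, had to reach 10 TPM in some library, and the part of this limit in the correlations was not tested.

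**Figure D3:**
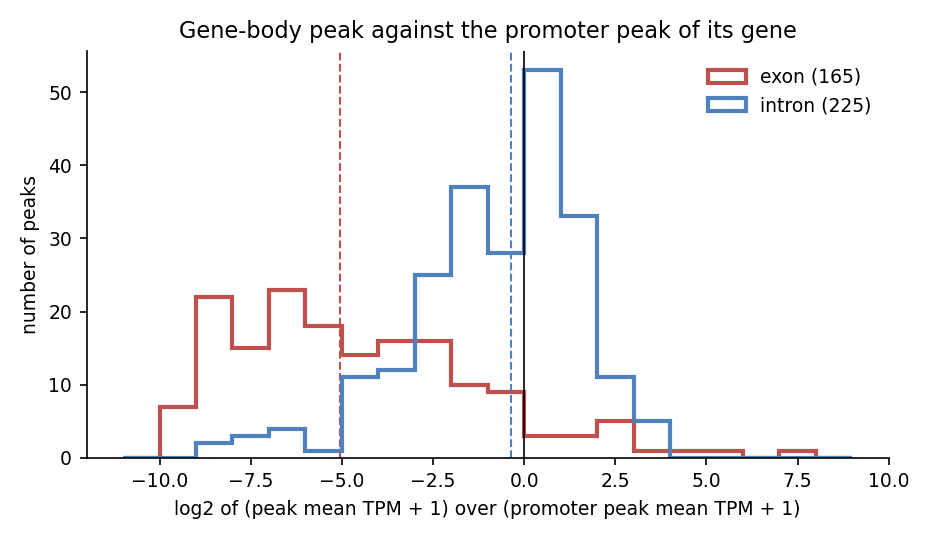
Number of peaks (y axis) by the log2 ratio of the member's mean TPM to that of the strongest promoter peak of its gene, 1 TPM added to both (x axis, bins of 1), for the 165 exon and 225 intron peaks whose host is the nearest gene. Dashed lines mark the medians, -5.04 in exons and -0.35 in introns, and the black line marks equal levels.

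Of the 5 highest ratios, 4 were exon peaks. Over all members 13 exon and 21 intron peaks were over 4-fold above the promoter peak. The strong exon peak at chr21 exceeded the promoter peak of the next gene, at 14.3 TPM, by a log2 ratio of 8.68, but that promoter belongs to another gene than its host. Within one gene the highest ratio was 7.05, at chr6:43712497-43712583 in exon 8 of 14, with 1697, 1584, 1782, 1109, 1550 and 1427 TPM in the member and a mean of 10.5 TPM at the promoter. The host had an RNA-seq level of 557 FPKM in the male and 537 in the female. The third, chr1:75776963-75777095 in exon 32 of 43, was at 682 to 1243 TPM, with a log2 ratio of 5.71 to a promoter peak of 20.1 TPM. These peaks were strong in all 6 libraries. The others among the 5 highest were chr25:2149772-2149851 at 4.88, an intron peak whose promoter peak belongs to another gene than its host, and the exon peak chr1:126985538-126985716 at 4.23.

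At the other end, low exon peaks were spread along the most abundant mRNAs. A model of 46 exons on HG999687.1 held 20 exon members, from exon 4 to exon 46, with means of 6.49 to 75.2 TPM. Their sum of 400 TPM was 6.16% of the promoter peak of the gene, at 6482 TPM, and the strongest was 1.16% of it. The RNA-seq level of this model was 2723 FPKM in the male and 2963 in the female library. Of the 3 lowest ratios of all members, 2 were here, at -9.76 and -9.47. The third, chr29:2862856-2862944 in exon 13 of 32, was at -9.43 (7.25 to 11.5 TPM) below a promoter peak of 7504 TPM. A model of 52 exons on chr6 showed the same arrangement, with 8 exon members from exon 4 to exon 52 at 8.54 to 48.3 TPM and a promoter peak of 3091 TPM. A model of 40 exons on chr1 held 11 exon members at 7.10 to 32.5 TPM and had no promoter peak in the table. The files give these models no gene name.

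Thrombospondin 1, a secreted matrix glycoprotein encoded by THBS1, also had low members beside a strong promoter peak, though mostly in an intron. It held 5 members on chr5, 4 of them in intron 20 of 20 and 1 in exon 14. Their means ran from 7.32 to 32.2 TPM, next to a promoter peak of 2195 TPM. The member in exon 14 was at 9.41, 8.78, 14.5, 11.7, 5.03 and 5.77 TPM, higher in each male than in each female library. Its female values were under 10 TPM, so that it entered the table through male libraries. The intron 20 members other than chr5:29200234-29200341 had the same order. So had the promoter peak, at 1890 to 2964 TPM in male and 1390 and 1526 TPM in female libraries, which was not called (adjusted p = 0.0967). Of the intron 20 members, only chr5:29199233-29199915 reached 10 TPM in female libraries. The others, like the exon 14 member, entered the table through male libraries alone, so that their order between the sexes is partly set by the 10 TPM limit. None of the 5 members passed the test between the sexes, with adjusted p from 0.113 to 0.602, or between the media. Gene symbols come from the names in a table of the study that was ordered by its own sex comparison. Only 20 members had a nearest gene and 17 a host with a symbol there, so that the named genes are no sample of all hosts.

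Between the sexes, 35 members (2.99%) were called, that is, had an adjusted p under 0.05 in limma on log2(TPM + 1), adjusted over all 10024 peaks. Over all peaks the share was 2.82%, so that gene-body peaks were called about as often as the table as a whole. Of the 35, 30 were higher in male libraries (all peaks 2.47%) and 5 were higher in female libraries (all peaks 0.349%). An unadjusted p under 0.05 was found for 185 members (15.8%, all peaks 13.8%). Male and female values did not overlap in 301 members (25.7%, all peaks 24.3%), among them all 35, as in all 283 called peaks of the table. The calls rest on the only female embryo. Nearly all were lost without either of its libraries, and all were lost with 1 value per embryo, 2 male against 1 female. These settings leave 1 value in the female group. In 7 of the 30, all female libraries were under the 10 TPM that a peak had to reach, and in 1 of the 5 all male libraries were, so that these entered the table through one sex.

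Peaks on chrZ made up the largest block. Of the 43 members on chrZ 14 were called (32.6%), all higher in male and all in introns, against 21 of 1128 elsewhere (1.86%). With p values adjusted without the chrZ peaks, 9 of these 21 stayed called. The same shares over all peaks were 33.8% and 1.28%, and promoter peaks of chrZ were called at 40.3%. The median male minus female difference of log2(TPM + 1) was 0.66 for chrZ members (0.59 over 7 exon and 0.67 over 36 intron peaks), 0.66 for chrZ promoter peaks and 0.02 for members elsewhere. Intergenic peaks of chrZ had a median of 0.46. In 33 of the 43 members every male library was above every female library (76.7%, against 67.9% of the other chrZ peaks and 14.5% of members elsewhere). The medians of chrZ members and chrZ promoter peaks were alike, and their difference was not tested. RNA-seq of their 37 hosts was higher in the male library for 34, with a median log2 ratio of 0.65.

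SLC30A5, a zinc transporter gene on chrZ, had the male-higher member of smallest adjusted p. This peak, chrZ:22138550-22138676 in intron 4 of 9, was at 45.9, 47.6, 57.6 and 53.6 TPM in male and 14.6 and 18.2 TPM in female libraries. Each male library was above each female one, by 3.12-fold on the means (log2 difference 1.59, SE 0.14, adjusted p = 0.0048). The promoter peak of the gene was at 149, 139, 133, 137, 87.1 and 84.6 TPM, with a smaller log2 difference of 0.69 (adjusted p = 0.0112). The gap between both peaks was not significant (0.90, adjusted p = 0.157).

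Other chrZ members of small adjusted p had male values near 2-fold of the female ones. The peak chrZ:44573537-44573808 in intron 21 of 24 was at 43.3, 45.8, 49.2 and 49.7 TPM in male and 20.8 and 21.01 TPM in female libraries (2.25-fold, adjusted p = 0.0049). In chrZ:64832771-64832929, intron 8 of 8, male libraries were at 116, 136, 130 and 142 TPM and female libraries at 63.1 and 64.6 TPM (2.06-fold, adjusted p = 0.0070). The strongest called member of chrZ, chrZ:9436381-9436705 in intron 2 of 8, was at 1244, 1326, 1205 and 1470 TPM in male and 770 and 783 TPM in female libraries (1.69-fold, adjusted p = 0.0172). In all 3 every male library was above both female libraries, and high glucose was above F12 within each embryo by less than the gap between the sexes.

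Only 3 chrZ members had a higher mean in female libraries, none of them called. The clearest was in C1QTNF3, which encodes a secreted protein of the C1q and TNF related family. Its peak, chrZ:10644426-10644711 in intron 1 of 6, was at 298, 450, 287 and 207 TPM in male and 639 and 618 TPM in female libraries. Both female values were above all male ones, yet the spread among males left it short of the threshold (log2 difference -1.07, adjusted p = 0.103). The RNA-seq level of the gene was 436 FPKM in the male and 579 in the female.

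Outside chrZ, 7 of the 16 male-higher calls were in a single gene. EIF5B, a GTPase that joins the ribosomal subunits at the start of translation, held 9 members on chr1. All 9 were higher in male libraries, and 7 of them were called. The peak in intron 1, chr1:130450915-130451104, was at 477, 532, 609 and 397 TPM in male and 176 and 196 TPM in female libraries, 2.71-fold on the means (log2 difference 1.42, SE 0.17, adjusted p = 0.0097). It was also the strongest CAGE peak of the gene, above the promoter peak at 173, 166, 154, 266, 153 and 148 TPM. At the promoter peak every male library was also above both female ones, but narrowly, with the lowest male value at 154 and the highest female one at 153 TPM. The means differed by 1.26-fold, with the high glucose library of embryo 3 far above the other males at 266 TPM. This difference was not called (log2 difference 0.30, adjusted p = 0.644).

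Downstream of the intron 1 peak, a peak was found in each of exons 2 to 9 of EIF5B. The strongest, in exon 4 and 652 bases wide, was at 120, 147, 147 and 111 TPM in male and 56.3 and 61.7 TPM in female libraries (2.23-fold, adjusted p = 0.0111). The peaks in exons 2 to 7 were called, with adjusted p from 0.0111 to 0.0477, and those in exons 8 and 9 were not (0.0799 and 0.0811). With p values adjusted without the chrZ peaks, the intron 1, exon 3 and exon 4 peaks stayed called (0.0299 to 0.0459) and those in exons 2, 5, 6 and 7 did not (0.0530 to 0.106). In all 9 members every male library exceeded every female library. At exons 2, 7 and 9 both female libraries were under 10 TPM, so that these peaks entered the table through male libraries alone. The 6 called peaks, those in exons 2 to 7, were the only exon members called between the sexes. The RNA-seq level of EIF5B was 942 FPKM in the male and 476 in the female library. The test of the gap between a member and the promoter peak did not pass for any of the 9 (adjusted p from 0.305 to 0.596), so a difference between promoter and body was not shown.

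**Figure D4:**
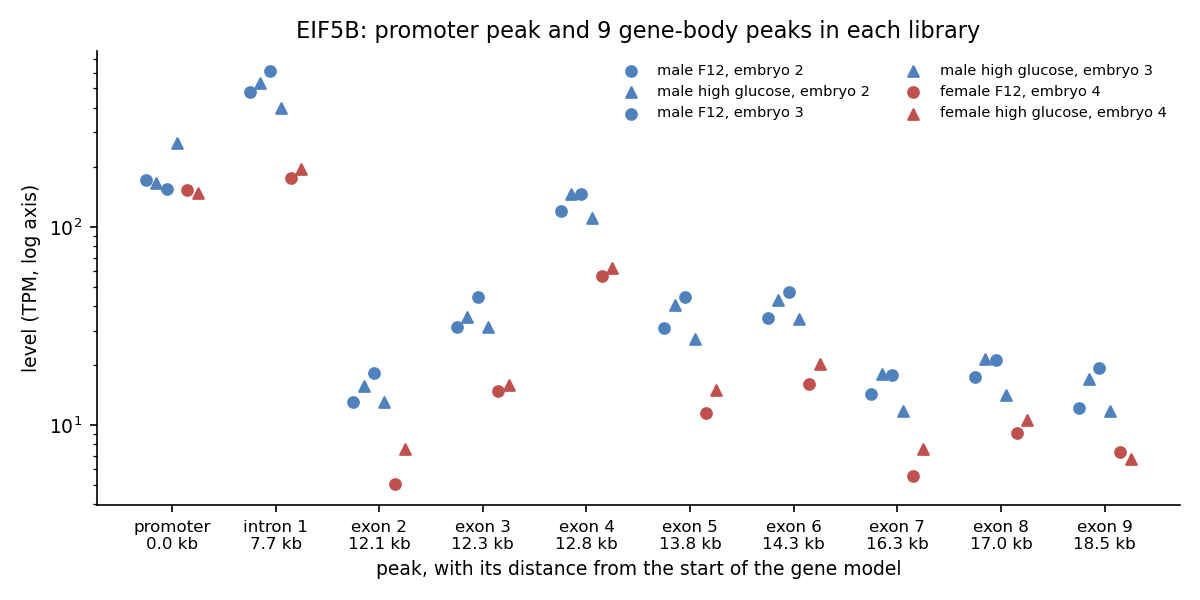
Level in TPM (y axis, log axis) of the EIF5B promoter peak and its 9 gene-body peaks in each of 6 libraries, in order along the gene with the distance from the start of the model (x axis). Blue is male, red is female, circles are F12 and triangles high glucose. Female values lie below all male values in every gene-body peak. They also do so in the promoter peak, by a narrow margin, where the difference was not called.

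The other male-higher members outside chrZ were single intron peaks. In chr4:29707645-29707854, intron 2 of 15, male libraries were at 38.2, 27.6, 48.3 and 28.1 TPM and female ones at 13.1 and 9.20 TPM (3.18-fold, adjusted p = 0.0233). The largest log2 difference, 2.88 (SE 0.47, adjusted p = 0.025), was at chr27:1191371-1191431 in intron 12 of 13, with 24.6, 7.82, 18.9 and 9.08 TPM in male and 1.41 and 0.631 TPM in female libraries. Neither of these stayed called when p values were adjusted without the chrZ peaks (0.0587 and 0.0626). The chr27 peak reached 10 TPM only in the F12 libraries of the males, so that it entered the table through one sex. It was also higher in F12 than in high glucose in both males. Its host was at 92.4 FPKM in the male and 134 in the female, against the direction of the peak. The start of EDKM, which was listed at 0 FPKM, was nearer to it than that of its host. It was the exception among hosts. Of the 23 hosts of all male-higher members, on chrZ and elsewhere, 22 had a higher FPKM in the male library, with a median log2 ratio of 0.65. Of 4 hosts of female-higher members none had. Among all hosts of members, called or not, 91.9% of those on chrZ and 50.3% of those outside were higher in the male library. The median log2 ratio of all chrZ hosts was also 0.65. The RNA-seq came from cultures that also gave CAGE libraries of this comparison.

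The member of smallest adjusted p was higher in female. It lay at chr1:75065716-75065986 in intron 59 of 70 of an unnamed model, upstream of PHC1, which encodes a Polycomb group protein and whose start was the nearest. Male libraries were at 24.1, 24.9, 27.6 and 25.05 TPM and female libraries at 129 and 177 TPM, a 6.02-fold difference of the means (log2 difference -2.53, SE 0.14, adjusted p = 6.9e-04). A weaker peak next to it, chr1:75065569-75065681, was at 2.31, 1.56, 2.26 and 2.75 TPM in male and 11.9 and 12.9 TPM in female libraries (5.58-fold, adjusted p = 0.0166). All male values of this weaker peak were under 10 TPM, so that it entered the table through the female libraries alone. Both peaks were high in the same 2 libraries. The host model was at 5.07 FPKM in the male and 26.9 in the female RNA-seq library, whereas PHC1 itself was at 10.9 and 11.1. The first of these peaks was also the only member called when either female library was left out.

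The remaining female-higher calls were peaks in first introns. The peak chr1:3775375-3775508 was at 112, 106, 82.3 and 93.8 TPM in male and 218 and 201 TPM in female libraries (2.12-fold, adjusted p = 0.0112). The peak chr24:3401936-3402046 was at 73.8, 74.9, 74.9 and 73.7 TPM in male and 122 and 116 TPM in female libraries (1.60-fold, adjusted p = 0.0104). The last, chr30:2228238-2228422, was at 107, 104, 110 and 103 against 143 and 149 TPM (1.37-fold, adjusted p = 0.0394). It was no longer called when p values were adjusted without the chrZ peaks (0.0960). The hosts of the chr1 and chr24 peaks were expressed at low levels, 2.68 and 5.62 FPKM in the male.

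Between the media, 6 members were called, all of them higher in high glucose, which is 0.512% of members, against 0.419% of all peaks. An unadjusted p under 0.05 was found for 131 members (11.2%, all peaks 10.3%). Since each embryo was grown in both media, the embryo was also fitted as a replicate block, which gave 28 members (2.39%), 24 higher in high glucose and 4 higher in F12, against 2.33% of all peaks. The 6 calls were kept under the block. Without 1 library the count fell to between 0 and 2. Compared within each embryo, 282 members (24.1%) were higher in high glucose in all 3 embryos and 188 (16.1%) were higher in F12 in all 3, next to 22.9% and 16.3% of all peaks. Members therefore shifted between the media about as often as other peaks.

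The smallest adjusted p between the media was at chr2:57313225-57313531 in exon 9 of 14. Its F12 libraries were at 6.76, 7.64 and 7.23 TPM and its high glucose libraries at 31.8, 32.3 and 35.2 TPM, 4.59-fold on the means (log2 difference -2.05, SE 0.11, adjusted p = 0.0039). The groups by medium lay far apart in all 3 embryos, male and female. The largest fold, 7.77, was at HG999691.1:11769648-11770006 in intron 4 of 47, with 17.6, 11.3 and 8.38 TPM in F12 and 93.2, 117 and 79.3 TPM in high glucose (adjusted p = 0.0401). The other 4, in introns of models on chr2, HG999687.1 and HG999695.1, differed by log2 values from -0.97 to -1.22, with adjusted p from 0.0458 to 0.0469. In 2 of the 6, the peak at chr2:57313225-57313531 and HG999687.1:8370212-8370314, all F12 libraries were under 10 TPM, so that these entered the table through high glucose alone. Among the 28 calls with the block this held for 6, and for 1 all high glucose libraries were under 10 TPM. None of the 6 called without the block had a promoter peak of the gene with the nearest start. Most members lacked one as well, since it was present for 43.1% of all members and 36.1% of intron members.

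Of the peaks called only with the replicate block, some started from different levels in the embryos. At chr3:81122792-81122844, intron 1 of 3, the F12 libraries were at 10.2, 16.2 and 30.2 TPM and the high glucose libraries at 70.0, 103 and 150 TPM, in the order of embryos 2, 3 and 4. Each embryo rose several-fold, from a different base (5.71-fold on the means, adjusted p = 0.0041 with the block and 0.0790 without). The F12-biased call of largest fold, HG999700.1:356300-356468 in intron 5 of 10, was at 35.8, 43.0 and 15.9 TPM in F12 and 8.60, 5.60 and 4.96 TPM in high glucose (4.94-fold, adjusted p = 0.0171 with the block and 0.101 without). All its high glucose values were under 10 TPM, so that it entered the table through F12 alone. On chrZ a peak in intron 21 of 27, chrZ:41236778-41236919, was at 190, 199 and 143 TPM in F12 and 410, 519 and 298 TPM in high glucose, 2.30-fold higher (adjusted p = 0.010 with the block). It was the only chrZ member called between the media, under the block alone.

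**Figure D5:**
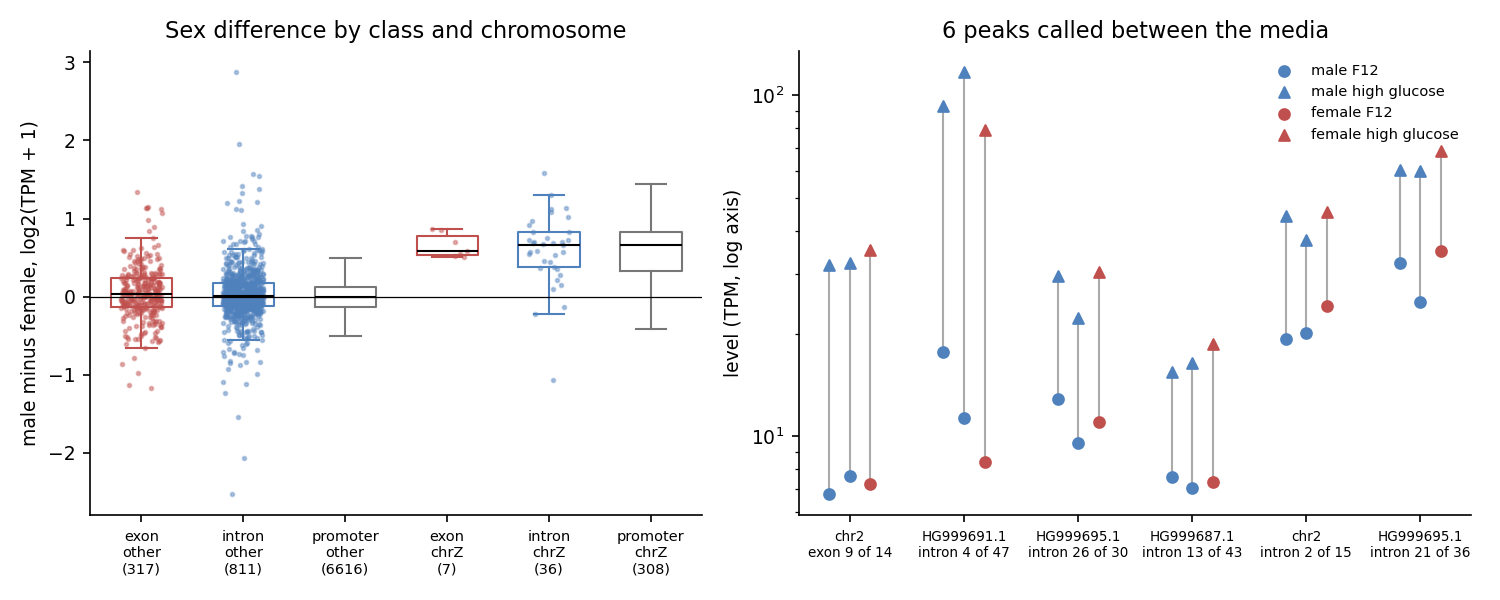
Left, male minus female difference of log2(TPM + 1) (y axis) for exon, intron and promoter peaks outside and on chrZ, with the number of peaks; boxes show the median and quartiles, whiskers reach 1.5 times the box, and points are single gene-body peaks. Medians on chrZ are 0.59, 0.67 and 0.66. Right, level in TPM (y axis, log axis) of the 6 members called between the media, F12 (circles) joined to high glucose (triangles) of the same embryo, males in blue and the female in red; all 18 lines rise to high glucose.

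The test of whether the medium difference was unlike in the sexes, an interaction term in limma, was passed by 0 members and 0% of all peaks. Its unadjusted p was under 0.05 for 6 of 1171 members and for 40 of all 10024 peaks. The fit had 2 residual degrees of freedom and no term for embryo, so that differences between embryos stayed in its residual. Both shares with an unadjusted p under 0.05 were below the 0.05 expected by chance. The test could thus see only large interactions, and its 0 calls do not show that there were none. COL9A1, a collagen gene of cartilage, held a member with a wide spread between cultures. This only member, chr2:82018275-82018355 in intron 1 of 26, was at 11.1, 1.74, 6.95, 0.183, 0.0882 and 0.0902 TPM. It entered the table through the F12 library of embryo 2 alone, the only one to reach 10 TPM. It was higher in F12 in both males and at 1 tag in the female in either medium, and no test passed (adjusted p = 0.478 between the sexes).

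The gap between a member and the promoter peak of its gene was tested for 505 members. Between the sexes 1 passed (0.198%), against 0.506% of the 1384 peaks of any class that had such a promoter peak. An unadjusted p under 0.05 was found for 54 of the 505 members and 167 of the 1384 peaks. This was chrZ:103731-103885 in intron 6 of 20, at 28.3, 30.6, 25.5 and 31.8 TPM in male and 16.8 and 22.4 TPM in female libraries. Its promoter peak was at 85.1, 80.0, 98.4 and 135 TPM in male and 16.9 and 16.96 TPM in female libraries. Both were higher in male, the promoter by a log2 difference of 2.46 and the intron peak by 0.55, so that the gap differed by -1.91 (SE 0.24, adjusted p = 0.0152). Without either female library it was no longer called.

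Between the media 2 members passed (0.396%), against 0.217% of peaks, and 3 with the replicate block (0.594%), against 0.65%. At chr6:30721800-30722059 in intron 8 of 10 the member was at 71.9, 69.8 and 91.9 TPM in F12 and 65.5, 108 and 76.4 TPM in high glucose. The promoter peak of the gene was at 0.342, 0.0869 and 0.176 TPM in F12, a few tags at most, and at 10.6, 7.98 and 6.49 TPM in high glucose. The promoter peak was higher in high glucose in every embryo, though its own medium test did not pass (adjusted p = 0.0722) and it entered the table through 1 high glucose library. The intron peak was higher in high glucose in embryo 3 and lower in the others, and the gap differed between the media (log2 difference 2.87, SE 0.30, adjusted p = 0.0214). At chr9:4160175-4160260 in intron 13 of 18 the member went from 6.59, 6.86 and 5.64 TPM in F12 to 15.6, 18.2 and 12.1 TPM in high glucose, a difference that was not called by itself without the block (adjusted p = 0.0902). All its F12 values were under 10 TPM. Its promoter peak was at 10.1 to 13.7 TPM (gap -1.18, SE 0.16, adjusted p = 0.0412). With 5 TPM added to the values neither passed.

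The tables of emu and zebra finch also kept peaks outside promoters. In emu 1453 of 10274 peaks (14.1%) were in gene bodies, 15.3% of them in exons, and in zebra finch 508 of 10527 (4.83%), 50.2% of them in exons, against 27.7% in turkey. Of the zebra finch peaks, 17 were in 5′ UTRs and 69 in 3′ UTRs, classes that held no peak in turkey or emu. The exon shares are therefore not over like classes. All 4 zebra finch libraries were from high glucose, and those of emu came from both media. In both species the libraries were of both sexes and mostly female, whereas most turkey libraries were male. Gene-body peaks took a median of 13% of the peak TPM in emu, 1.45% in zebra finch and 9.90% in turkey. Exon medians were below intron medians in all 3 species, at 13.7 and 28.9 TPM in emu and 10.6 and 12.2 TPM in zebra finch. Species and gene annotation cannot be told apart here, since the gene models were made separately for each assembly.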

How the data were processed

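CAGE values are RPM (written TPM by the authors), deposited per peak and library. The authors aligned reads with BWA 0.7.10-r789 and HISAT2 2.1.0, kept clusters that reached 10 TPM in some library, and annotated them with ChIPseeker 1.32.0 to gene models predicted with Augustus. The paper then sorted peaks farther from gene starts with a trained sequence classifier, and among these analysed only those classed as promoters. How the members fared in this step was not examined, so that their counts and levels may reflect it. RNA-seq counts were deposited by the authors from HTSeq 2.0.1, with FPKM computed by the authors in edgeR 3.42.2 (totals 42517880 male and 36555328 female). Whole tags were recovered from the TPM (100% of values within 0.05 tag).

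All 10024 turkey peaks were fitted with limma 3.58.1 (trend) in R 4.3.3 on log2(TPM + 1), so that log2 differences of low peaks are understated. Folds between groups are ratios of mean TPM with nothing added. The Benjamini-Hochberg adjustment ran over all peaks. edgeR 4.0.16 on recovered tags, TMM, pseudocounts of 0.1 and 5, a mean of at least 10 TPM, covariates, blocks and each library left out were alternatives. Scripts were tested on simulated data. Same-embryo libraries deviated together from the medium mean (r = 0.532, 0.368 and 0.693), which includes the difference between the sexes. Between the 2 male embryos alone r was 0.325. With sex and medium fitted, the consensus correlation of the embryo block was 0.060. The pairing comes from the labels. Means, SDs and exact tests used Python 3.11.15, pandas 2.3.3 and numpy 2.4.6, and plots matplotlib 3.10.9.

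Peaks named are those of highest level, extreme ratio, width or smallest p, and those with a symbol. Members and lists were chosen with earlier results of these data known. The files pair few model IDs with names, so marker and gene lists could not be matched and the cell type was not checked. Sequences were not used here. Nothing beyond the labels says that cultures of one embryo were independent.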

Additional observations from a re-analysis of the deposited data

Results flagged for a closer look

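Among 55 named peaks and shares, 3 had one male library far from the other male libraries, always the high glucose library of embryo 3, and about 1 in 20 such groups is found by chance. At chr1:131244875-131245168 (intron 17 of 20) it was at 970.6 TPM against 1505 to 1519 TPM in the other males. At chr21:6561974-6562879 (last exon of 8) it was at 35.5 TPM against 25.5 to 27.1 TPM, and at chr3:22801961-22801966 (exon 2 of 62) at 14.04 TPM against 9.67 to 10.2 TPM. The title of this library carries the mark "(2nd)", which the labels do not explain. Its part in these values was not tested.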

How the results depend on the processing

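The count of 35 members called between the sexes was 9 when p values were adjusted without chrZ peaks and 0 with 1 value per embryo, and ran from 1 to 42 with one library left out; other settings gave 32 to 43, among them medium as a covariate with 43 and the same with a replicate block of embryo with 35, of which 31 were shared. The 6 members called between the media became 16 with sex as a covariate and 28 with the paired replicate block, and 0 to 2 with a library left out. The interaction gave 0 calls with pseudocounts of 0.1 and 5, chosen after seeing the data. Calls on the gap to the promoter peak ran from 0 to 2 between the sexes and 0 to 1 between the media without one library, and were 0 between the media with a pseudocount of 5. The sex difference in the gene-body share of TPM was 0.155 without the 10 strongest members and -0.183 to 0.110 without one library, and the medium difference -0.248 to -0.0795. The level differences were -0.61 to -0.59 (gene body and promoter) and -0.85 to -0.80 (exon and intron) without one library, where the smallest possible p is 0.0625. The median log2 ratio to the promoter peak was -1.30 with a pseudocount of 5 and -1.46 with the promoter of the host, chosen after seeing the data. The 31 named differences were picked by smallest p in these same data, called or not. Of their 418 alternative values, 342 stayed on their side of the threshold, 71 fell short of it, 5 passed it and 0 changed sign. Uncalled differences that stayed uncalled are among the 342, so that these counts do not measure how stable the calls were. Differences picked in this way could hardly change sign. One female embryo and the 10 TPM limit bound what the sex comparison can show.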
